A study of Mus musculus with 10 samples.

Results

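Chemokines and the interleukin-1 and TNF cytokines are the secreted signals of innate inflammation. They were examined here through 10 genes: the chemokine genes Ccl3, Ccl4, Ccl2, Cxcl16, Cx3cl1 and Cxcl12, and the cytokine genes Il1a, Il1b, Tnf and Il18. The genes were chosen by symbol, and all 10 were found among the 55471 gene identifiers of the table, each under a single identifier. They were measured by RNA-seq of the whole brain of wild-type Swiss Webster mouse pups, given as neonatal day 5. The 5 pups of the allopregnanolone group (libraries 6 to 10) had a hypoxic-ischemic brain injury and received this progesterone-derived steroid, which acts on GABA-A receptors. The 5 pups of the untreated group (libraries 1 to 5) had the same injury and no treatment. Every pup of both groups carried the injury, so no level below is set against an uninjured brain. Each pup gave 1 library, with 18656827 to 34270699 counts. Of 17101 genes tested with a count minimum, 1131 were higher and 795 lower in the allopregnanolone group, or 785 higher and 1453 lower when libraries were scaled by their totals alone.

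Chemokines are small proteins that draw cells along a gradient by binding G protein-coupled receptors on them. Ccl3, Ccl4 and Ccl2 are induced in activated microglia, the resident macrophages of the brain, and in other myeloid cells, and attract further myeloid cells. Cx3cl1 is made mainly by neurons and speaks to microglia through Cx3cr1, while Cxcl12 guides migrating cells in development through Cxcr4. The interleukin-1 cytokines and TNF are made by activated myeloid cells and switch on NF-kB target genes in the cells that carry their receptors. Il1b and Il18 are made as precursors that caspase-1 cleaves, and Tnf is shed from the cell surface by Adam17.

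In the allopregnanolone group 5 of the 10 genes were lower and 1 was higher, and the other 4 did not pass the threshold. The lower genes were Ccl3, Ccl4, Cxcl16, Il1a and Il1b, and the higher gene was Cx3cl1. This count comes from edgeR's quasi-likelihood test fitted to 29451 genes with at least 1 count in any library, with an adjusted p under 0.05 as threshold. In that fit 2.54% of all genes were lower and 3.59% were higher. The 10 genes were chosen with earlier results of these data known, so their count is a description. Without untreated library 1 the count of lower genes was 3 (1.83% of all genes), without untreated library 5 it was 7 (3.31% of all genes), and without the 3 untreated libraries of another name prefix it was 0.

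In the allopregnanolone group 7 of the 10 genes were near zero, while in untreated brains the mean of Ccl3 was next to that of Cxcl12. In CPM per kilobase of exon (library-scaled counts divided by the length of all annotated exons), Cx3cl1 averaged 242 in the allopregnanolone group and 198 in the untreated group. Il18 averaged 8.80 per kilobase in the allopregnanolone group and 8.59 in the untreated group, and Cxcl12 averaged 5.73 in the allopregnanolone group and 5.89 in the untreated group. The allopregnanolone libraries of Il18 (7.75 to 9.93 per kilobase) all lay above those of Cxcl12 (4.49 to 7.61), and the untreated ones did as well (7.14 to 9.50 and 5.04 to 6.37). The other 7 genes averaged at most 0.366 per kilobase in the allopregnanolone group (Ccl3). Below it came Cxcl16 at 0.248, Il1a at 0.149, Ccl2 at 0.131, Il1b at 0.0414, Tnf at 0.0303 and Ccl4 at 0, and library ranges of all neighbours in this order overlapped. In untreated brains Ccl3 averaged 4.97 per kilobase, next to Cxcl12, but untreated libraries 1 to 5 were spread widely, at 10.3, 7.64, 3.46, 3.01 and 0.406. After Ccl3 came Ccl4 at 1.99, Cxcl16 at 1.20, Il1a at 0.886, Ccl2 at 0.622, Il1b at 0.227 and Tnf at 0.220. Untreated library ranges of all neighbours in this order of 7 overlapped.

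Among the genes whose counts were lowest, 4 did not reach the count minimum used for the other comparison, which is 10 or more counts in at least 5 libraries. These were Ccl4, Ccl2, Il1b and Tnf, and they were near zero in the allopregnanolone group, with 0, 20, 8 and 6 counts summed over 5 libraries. In the untreated group the same genes had 160, 86, 51 and 43 counts. A single count was worth 0.0298 to 0.0562 CPM. Single untreated libraries had at most 64 counts of Ccl4, 50 of Ccl2, 15 of Il1b and 17 of Tnf. The fit on the 17101 genes at the minimum covered the other 6 genes, of which Ccl3, Cxcl16 and Il1a were lower (4.65% of all genes in that fit were lower) and Cx3cl1 was higher (6.61% were higher). In that fit 2 of the 6 were lower without untreated library 1 (3.00% of all genes) and 3 without untreated library 5 (5.75% of all genes). Ccl3 reached the minimum through 4 untreated libraries and allopregnanolone library 6, the deepest of all, and Il1a met it in allopregnanolone library 6 and in all 5 untreated libraries, which suffice on their own (2 to 16 counts in the allopregnanolone libraries, against 15 to 75 in the untreated ones). The presence of both in that fit therefore rests on the group where they are high, and their calls there are given beside those of the fit without the minimum.

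The stretches before the transcription start are shown because several of these genes were lower together, and they let the reader see how those start sites are built. RefSeq (GRCm38.p6) held a window for 7 of the 10 genes, and none was used for Ccl4, Ccl2 and Cxcl16. Below are the 100 bases before the RefSeq start of Il1a, Il1b, Tnf, Ccl3 and Cxcl12, 5′ to 3′ on the strand of the gene. Capitals mark TATAAA, the TATA box that places RNA polymerase, and TGANTCA, the letters bound by AP-1.
Il1a (chr2:129309973-129310072, minus strand): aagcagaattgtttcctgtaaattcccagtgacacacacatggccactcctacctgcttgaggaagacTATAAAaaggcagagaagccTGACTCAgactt
Il1b (chr2:129371140-129371239, minus strand): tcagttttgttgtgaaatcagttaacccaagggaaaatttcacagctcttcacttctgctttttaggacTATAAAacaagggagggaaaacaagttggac
Tnf (chr17:35202008-35202107, minus strand): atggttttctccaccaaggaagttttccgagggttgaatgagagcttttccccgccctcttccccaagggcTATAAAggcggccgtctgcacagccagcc
Ccl3 (chr11:83649379-83649478, minus strand): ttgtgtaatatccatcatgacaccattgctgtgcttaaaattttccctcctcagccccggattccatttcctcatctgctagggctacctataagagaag
Cxcl12 (chr6:117168435-117168534, plus strand): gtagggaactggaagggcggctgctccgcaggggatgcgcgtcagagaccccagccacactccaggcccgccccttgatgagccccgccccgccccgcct

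The cytokine genes Il1a, Il1b and Tnf held TATAAA beginning 32, 31 and 29 bases before the start. Over the full window of 250 bases and both strands, TATAAA was found in 5 of the 7 genes and in 12.4% of 32851 mouse windows. The others of the 5 were Cx3cl1 (6 bases before the RefSeq start) and Il18 (175 bases before it), and neither of these was lower. For Ccl3, Cx3cl1 and Il18 the RefSeq start differs from the gene coordinates given further below, which come from another annotation. By those coordinates Cx3cl1 begins at 94772009, so most of its window (94771930 to 94772179), with its TATAAA, lies inside the gene. Ccl3, which was lower, and Cxcl12 had no TATAAA in the window. TGANTCA was found in Il1a alone, 12 bases before the start, against 6.75% of all windows, and it did not overlap TATAAA. The NF-kB consensus was found in none of the 7 windows and in 7.25% of all windows. Windows of Cxcl12 and Cx3cl1 were rich in G and C (64.4% and 64.8%, with 14 CpG each), while those of Il1a, Il1b and Ccl3 were at 42.4%, 44.4% and 46.8% with 2 or 3 CpG each. The Tnf window was at 57.6% with 10 CpG, and that of Il18, which was not lower, was at 35.6% with 1 CpG. Over the 7 windows the G and C content did not sort the genes by their group difference. The median over all windows was 52.4% with 6 CpG. These are letter matches, with nothing in the data on what binds there.

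**Figure D1:**
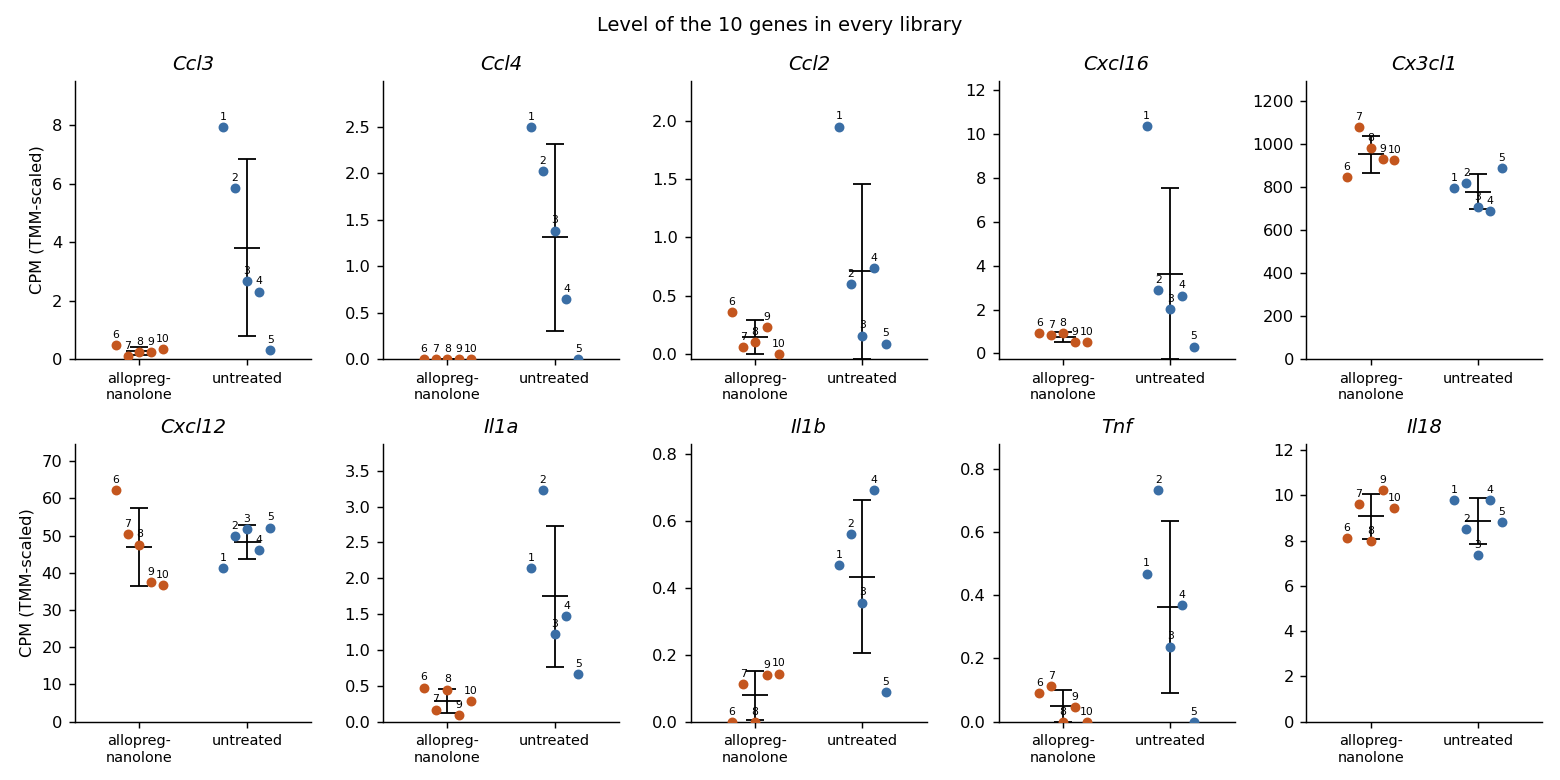
CPM of each of the 10 genes in every library (TMM-scaled, y axis, own scale per panel), with allopregnanolone libraries 6 to 10 left and untreated libraries 1 to 5 right in each panel. Horizontal marks and bars are the mean ± SD of 5 libraries; for Ccl3, Ccl4, Cxcl16, Il1a, Il1b and Tnf untreated libraries 1 to 4 lie above every allopregnanolone library.

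Ccl3 (macrophage inflammatory protein 1 alpha, ENSMUSG00000000982, chromosome 11, 83647844 to 83649355) binds Ccr1. It had 0.477, 0.112, 0.248, 0.230 and 0.335 CPM in allopregnanolone libraries 6 to 10, against 7.92, 5.86, 2.65, 2.31 and 0.311 CPM in untreated libraries 1 to 5. Untreated libraries 1 to 4 were all above the allopregnanolone group, and untreated library 5 lay inside its range. On the log2 scale the difference was -3.66 (SE 0.66; edgeR with the count minimum, adjusted p = 0.00492), or 12.6-fold lower. Without the minimum the adjusted p was 0.000387 (edgeR). Without untreated library 1 it was -3.21 and without untreated library 5 it was -3.95, both past the threshold.

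Ccl4 (macrophage inflammatory protein 1 beta, ENSMUSG00000018930, chromosome 11, 83662584 to 83664683) is a neighbour of Ccl3 on the chromosome and, like it, attracts myeloid cells. It had 0 counts in each of the 5 allopregnanolone libraries, against 64, 47, 35, 14 and 0 counts in untreated libraries 1 to 5. The untreated values were 2.50, 2.02, 1.38, 0.646 and 0 CPM, so untreated library 5 was again at the level of the treated brains. With the 3 counts that a count of 0 allows over the whole allopregnanolone group, Ccl4 was at least 51.4-fold lower, with an adjusted p = 0.00105 (edgeR without the count minimum). The limit covers counting error only.

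Ccl2 (monocyte chemoattractant protein 1, chromosome 11, 82035571 to 82037453) draws monocytes that carry Ccr2. It had 0.358, 0.0562, 0.0992, 0.230 and 0 CPM in allopregnanolone libraries 6 to 10, against 1.95, 0.603, 0.158, 0.739 and 0.0889 CPM in untreated libraries 1 to 5. The groups overlapped, with untreated libraries 3 and 5 inside the allopregnanolone range. Its log2 fold change of -2.09 (SE 0.72) did not pass (adjusted p = 0.0937, edgeR without the count minimum). It passed without allopregnanolone library 6 (adjusted p = 0.0398) and without untreated library 5 (adjusted p = 0.0251), and was -1.27 without untreated library 1.

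Cxcl16 (ENSMUSG00000018920, chromosome 11, 70453983 to 70459984) is a membrane-bound chemokine whose receptor is Cxcr6. It had 0.924, 0.844, 0.943, 0.507 and 0.527 CPM in allopregnanolone libraries 6 to 10, against 10.3, 2.88, 2.02, 2.63 and 0.311 CPM in untreated libraries 1 to 5. Untreated library 1 stood far above the others and untreated library 5 was the lowest of all 10. Its log2 fold change of -2.27 (SE 0.63) passed (adjusted p = 0.0339, edgeR with the count minimum), or 4.83-fold lower, and it was -1.38 without untreated library 1 (adjusted p = 0.0899). Zmynd15, which is annotated on the opposite strand and shares 552 bases with the exons of Cxcl16 (18.3%), averaged 0.919 ± 0.351 CPM in the allopregnanolone group and 1.42 ± 0.447 CPM in the untreated group (SD, n = 5 each). No source used here gives the strand setting of the counting, so reads in the shared bases cannot be assigned to either gene with certainty.

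Cx3cl1 (fractalkine, ENSMUSG00000031778, chromosome 8, 94772009 to 94782427) was the most abundant of the 10 genes and went the other way. It had 844, 1077, 982, 929.7 and 924 CPM in allopregnanolone libraries 6 to 10, against 795, 818, 705, 686 and 887 CPM in untreated libraries 1 to 5. The groups overlapped in a single pair, since untreated library 5 lay above allopregnanolone library 6. This made Cx3cl1 1.22-fold higher, a log2 fold change of 0.29 (SE 0.08; edgeR with the count minimum, adjusted p = 0.0331). The call was lost in 7 of the 10 leave-one-out fits, among them those without untreated libraries 1 (adjusted p = 0.0593), 3 (0.0856) and 4 (0.0804) and without allopregnanolone libraries 7 (0.0752), 8 (0.0667), 9 (0.0555) and 10 (0.0534).

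Cxcl12 (stromal cell-derived factor 1, ENSMUSG00000061353, chromosome 6, 117168535 to 117181367) had 62.2, 50.3, 47.6, 37.6 and 36.7 CPM in allopregnanolone libraries 6 to 10, against 41.2, 49.8, 51.8, 46.0 and 52.1 CPM in untreated libraries 1 to 5. The allopregnanolone libraries spread over a wider range than the untreated ones and enclosed all of them. Their log2 fold change of -0.036 (SE 0.13) did not pass (adjusted p = 0.887, edgeR with the count minimum), and it was 0.040 without allopregnanolone library 10. Markers of pericytes and of the meninges, where Cxcl12 is known to be made, summed to 1076 CPM in allopregnanolone library 6, the highest for Cxcl12, and to 514 to 573 CPM in the other allopregnanolone libraries. Their part in the spread of Cxcl12 was not tested.

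**Figure D2:**
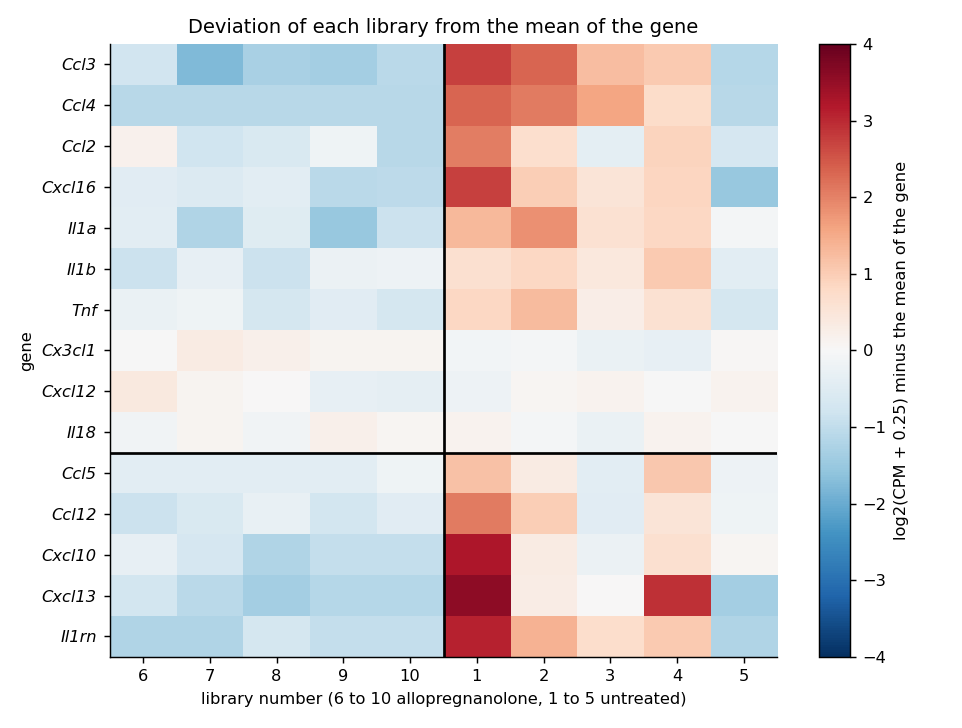
Deviation of each library from the mean of the gene on the scale log2(CPM + 0.25) (colour), for the 10 genes above the horizontal line and for 5 related genes below it (rows), in allopregnanolone libraries 6 to 10 and then untreated libraries 1 to 5 (columns). Untreated library 1 is the highest of all libraries for 4 of the 10 genes (Ccl3, Ccl4, Ccl2 and Cxcl16), and untreated library 5 is the lowest untreated library for 7 of them.

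Among the cytokines, Il1a (interleukin-1 alpha, ENSMUSG00000027399, chromosome 2, 129299610 to 129309972) was the only one of the 10 genes whose groups did not overlap. It had 0.477, 0.169, 0.447, 0.0922 and 0.287 CPM in allopregnanolone libraries 6 to 10, against 2.15, 3.23, 1.23, 1.48 and 0.667 CPM in untreated libraries 1 to 5. Every untreated library was above every allopregnanolone library. The same order was seen in 4.20% of all genes at the minimum, which the untreated libraries of Il1a meet on their own. Il1a was 5.64-fold lower, with a log2 fold change of -2.50 (SE 0.46; edgeR with the count minimum, adjusted p = 0.00569), and without the minimum it was again -2.50 (SE 0.44; edgeR, adjusted p = 0.00124). Leaving out each library in turn, with the same genes tested, gave -2.79 to -2.16. The noncoding gene Gm14023 shares 222 bases of its exons on the other strand and averaged 0.246 ± 0.299 CPM in the allopregnanolone group and 0.240 ± 0.120 CPM in the untreated group (SD, n = 5 each).

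Il1b (interleukin-1 beta, ENSMUSG00000027398, chromosome 2, 129364570 to 129371139) lies close to Il1a. It had 0, 0.112, 0, 0.138 and 0.144 CPM in allopregnanolone libraries 6 to 10, against 0.468, 0.560, 0.356, 0.692 and 0.0889 CPM in untreated libraries 1 to 5. Untreated libraries 1 to 4 were above the allopregnanolone group and untreated library 5 was inside it. The log2 fold change of -2.48 (SE 0.73, adjusted p = 0.0477, edgeR without the count minimum) passed narrowly. It was lost in 12 of 19 other analyses, among them the fits without allopregnanolone library 6, 7, 8 or 9 and without untreated library 1, 2, 3 or 4 (log2 fold changes of -2.83 to -2.07 over all leave-one-out fits, highest adjusted p = 0.138).

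Tnf (tumour necrosis factor, chromosome 17, 35199381 to 35202007) had 0.0894, 0.112, 0, 0.0461 and 0 CPM in allopregnanolone libraries 6 to 10, against 0.468, 0.732, 0.237, 0.369 and 0 CPM in untreated libraries 1 to 5. As with Ccl4, untreated library 5 had no count while untreated libraries 1 to 4 were above the allopregnanolone group. The log2 fold change of -2.70 (SE 0.85) did not pass (adjusted p = 0.0633, edgeR without the count minimum), and without untreated library 5 it was -3.01 and passed (adjusted p = 0.0108).

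Il18 (interleukin-18, ENSMUSG00000039217, chromosome 9, 50554827 to 50581840) had 8.10, 9.62, 7.99, 10.2 and 9.43 CPM in allopregnanolone libraries 6 to 10, against 9.79, 8.53, 7.36, 9.79 and 8.80 CPM in untreated libraries 1 to 5. The groups overlapped, with allopregnanolone library 9 above every untreated library and untreated library 3 below every allopregnanolone library. Allopregnanolone over untreated gave a log2 fold change of 0.034 (SE 0.11; edgeR with the count minimum, adjusted p = 0.876), and -0.025 with library totals alone.

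**Figure D3:**
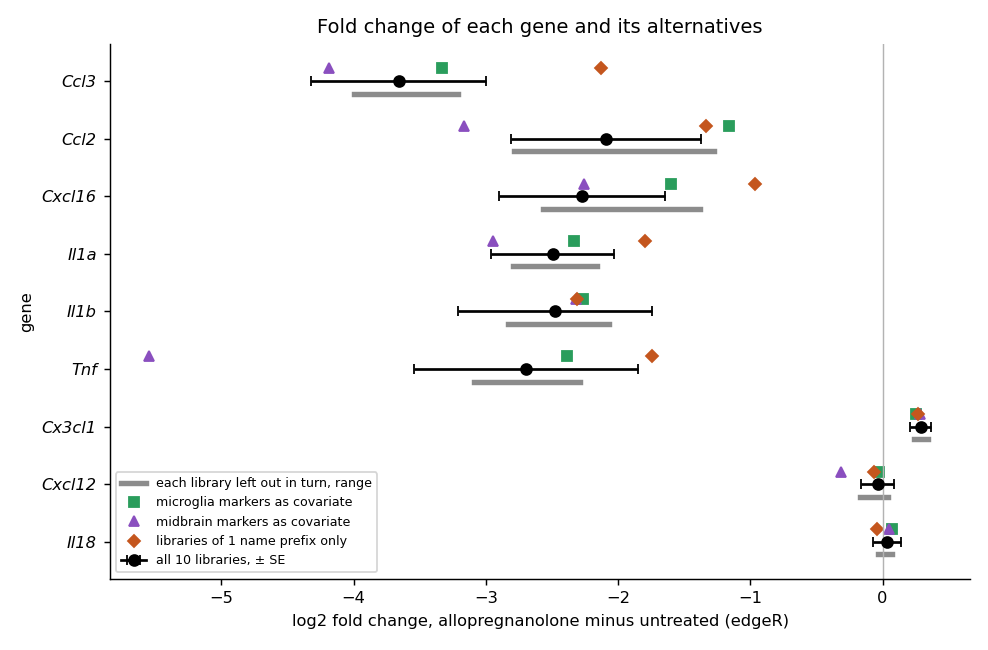
Log2 fold change of 9 of the 10 genes (x axis, allopregnanolone minus untreated, edgeR; black points with SE), with the range over leaving out each library in turn (grey) and 3 other fits (coloured marks); Ccl4 is left out because its fitted value depends on a prior count when a group is at 0. Ccl3, Ccl2, Cxcl16, Il1a, Il1b and Tnf lie between -3.66 and -2.09 with all libraries, and Cx3cl1, Cxcl12 and Il18 lie between -0.036 and 0.29.

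Within the groups, the 7 genes near zero in the allopregnanolone group tended to be high in the same libraries. After the group means were subtracted, the 21 pairs among Ccl3, Ccl4, Ccl2, Cxcl16, Il1a, Il1b and Tnf correlated at 0.32 to 0.95 over the 10 libraries (median Pearson correlation 0.72, on log2(CPM + 0.25)). Against Cx3cl1, Cxcl12 and Il18 the same genes correlated at -0.54 to 0.52, with a median of -0.20. The points share libraries and depth, and most of the spread comes from the untreated group. The 6 named protein-coding genes whose within-group pattern was most like that of Ccl3, of 14294 ranked over the 10 libraries, were Slc14a1 (0.96), Gfap (0.95), Yipf1 (0.95), Upp2 (0.93), Stat3 (0.92) and Uggt1 (0.91). Of these Slc14a1, a urea transporter, passed the threshold, at 12.6 ± 1.16 CPM in the allopregnanolone group and 20.7 ± 3.80 CPM in the untreated group (SD, n = 5 each, adjusted p = 0.00325, edgeR). Upp2 went the opposite way to Ccl3 between the groups, at a log2 fold change of 0.74 (adjusted p = 0.0888, edgeR). Yipf1, Stat3 and Uggt1 were at -0.26, -0.098 and -0.056, none past the threshold. Gfap, the filament of reactive astrocytes, stood at 213 ± 43.7 CPM in the allopregnanolone group and 385 ± 200 CPM in the untreated group (SD, n = 5 each, adjusted p = 0.0772, edgeR). Gfap is 1 of 10 astrocyte markers, of which 4 were higher and none was lower (6.61% and 4.65% of all genes at the minimum). Their median log2 fold change was 0.16, with sums of 3628 to 4076 CPM in the allopregnanolone group and 2977 to 3666 CPM in the untreated group.

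Library names carry a prefix whose meaning the labels do not give. A first prefix is on untreated libraries 1 to 3 alone, and the other is on untreated libraries 4 and 5 and on all allopregnanolone libraries, so groups can be compared within the second prefix only. There, with 5 allopregnanolone and 2 untreated libraries, none of the 10 genes passed in either fit (0.134% of all genes were lower with the count minimum and 0.478% without it). At an unadjusted p under 0.05, 2 of the 6 genes at the minimum were lower and 1 was higher, and over all 10 genes 4 were lower and 1 was higher (edgeR, the only tool run on these libraries). The share of all genes at this unadjusted p was not counted, so these numbers cannot be set against it. The log2 fold changes were -2.13 for Ccl3 (adjusted p = 0.160), -1.79 for Il1a (0.154), -0.96 for Cxcl16 (0.467), -1.34 for Ccl2 (0.635), -2.31 for Il1b (0.401), -1.75 for Tnf (0.657) and 0.27 for Cx3cl1 (0.280), all by edgeR. Ccl4 had an adjusted p of 0.0913 there.

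Most other chemokine genes were near zero as well. Of 27 further chemokine genes, 24 had at least 1 count and 9 reached the count minimum. None of those 9 passed in TMM-scaled edgeR or in limma, where 1 was lower and 1 higher at an unadjusted p under 0.05, and 1 was lower in DESeq2 and in edgeR with library totals alone. Ccl22 stood nearest to the threshold, at a log2 fold change of -1.53 (edgeR, adjusted p = 0.0605). Without the minimum 4 of the 24 were lower and none was higher, while 2.54% of all genes in that fit were lower and 3.59% higher. The 4 were Ccl5, Ccl12, Cxcl10 and Cxcl13, named after their values were seen. Cxcl13, which attracts B cells, had 0.209, 0.112, 0.0496, 0.0922 and 0.0958 CPM in allopregnanolone libraries 6 to 10, against 8.82, 0.689, 0.514, 5.54 and 0.0445 CPM in untreated libraries 1 to 5 (adjusted p = 0.00293, edgeR without the count minimum). Cxcl10, an interferon-induced chemokine, had 0 to 0.209 CPM in the allopregnanolone libraries and 0.237 to 5.19 CPM in the untreated ones, with no overlap (adjusted p = 0.00755, edgeR without the count minimum). The share of all genes lower without overlap was counted only at the minimum (4.20%), which Cxcl10 did not reach. Untreated library 1 was the highest for both Cxcl13 and Cxcl10, and without it 1 of the 24 genes was lower (1.83% of all genes). The call was lost in 3 of 19 other analyses for Cxcl13, 5 of 18 for Cxcl10, 5 of 19 for Ccl12 and 10 of 18 for Ccl5. Cxcl14, the most abundant of the 27, averaged 120 ± 17.1 CPM in the allopregnanolone group and 103 ± 8.11 CPM in the untreated group (SD, n = 5 each, adjusted p = 0.123, edgeR).

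Receptors of these ligands were compared in the fit where 6.61% of all genes at the minimum were higher and 4.65% lower. Of 23 chemokine receptor genes 10 reached the count minimum, 1 was higher and none was lower in TMM-scaled edgeR, DESeq2 and limma (2 lower at an unadjusted p under 0.05 in edgeR), with a median log2 fold change of -0.077 against -0.0046 over all genes at the minimum. The higher gene was Ackr3, a scavenging receptor for Cxcl12, at 10.9 ± 0.567 CPM in the allopregnanolone group and 8.75 ± 0.840 CPM in the untreated group (SD, n = 5 each, adjusted p = 0.0343, edgeR), a call lost in 12 of 21 other analyses. Cx3cr1, the microglial receptor of fractalkine, averaged 51.2 ± 3.15 CPM in the allopregnanolone group and 56.8 ± 9.25 CPM in the untreated group (SD, n = 5 each). Cx3cr1 thus stood at -0.15 on the log2 scale (SE 0.091; edgeR, adjusted p = 0.308). For Ccr1 and Cxcr4 the log2 fold changes were -0.46 (SE 0.24) and -0.27 (SE 0.12), neither past the threshold. Ccr2 and Cxcr6, the receptors of Ccl2 and Cxcl16, were near zero, at 0.175 and 0 CPM in the allopregnanolone group and 0.508 and 0.0245 CPM in the untreated group.

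On the interleukin-1 side, Il1rap, the shared co-receptor of this family, was higher, at 29.4 ± 1.18 CPM in the allopregnanolone group and 23.5 ± 1.72 CPM in the untreated group (SD, n = 5 each). The difference was 0.32 on the log2 scale (SE 0.063; edgeR, adjusted p = 0.00719), and the groups did not overlap, as was so in this direction for 5.44% of all genes at the minimum. It was the only call in edgeR and limma among 6 genes at the minimum of 13 on the list (2 were higher in DESeq2), whose median log2 fold change was 0.074. In edgeR 6.61% of all genes at the minimum were higher. Il1r1, the signalling receptor, averaged 5.25 ± 0.723 CPM in the allopregnanolone group and 4.62 ± 1.18 CPM in the untreated group (SD, n = 5 each, adjusted p = 0.538, edgeR). Il1rn, the secreted antagonist that blocks this receptor, had 0, 0, 0.0992, 0.0461 and 0.0479 CPM in allopregnanolone libraries 6 to 10, against 4.60, 1.25, 0.673, 0.923 and 0 CPM in untreated libraries 1 to 5. It was thus lower together with the cytokine it opposes, and untreated library 5 was again at 0 (log2 fold change -5.21, SE 0.96, adjusted p = 0.00193, edgeR without the count minimum). The size of this fold change is uncertain, since the allopregnanolone libraries were near zero. The Il1rn call was lost in 4 of 19 other analyses (limma-trend, robust empirical Bayes, the midbrain covariate and the name prefix). The decoy receptor Il1r2 and the Il18 receptor genes Il18r1 and Il18rap were near zero in both groups, at means of 0.00958 to 0.179 CPM in the allopregnanolone group and 0.0243 to 0.136 CPM in the untreated group. Il18bp, which binds Il18, stood at a log2 fold change of -0.16 (SE 0.11).

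**Figure D4:**
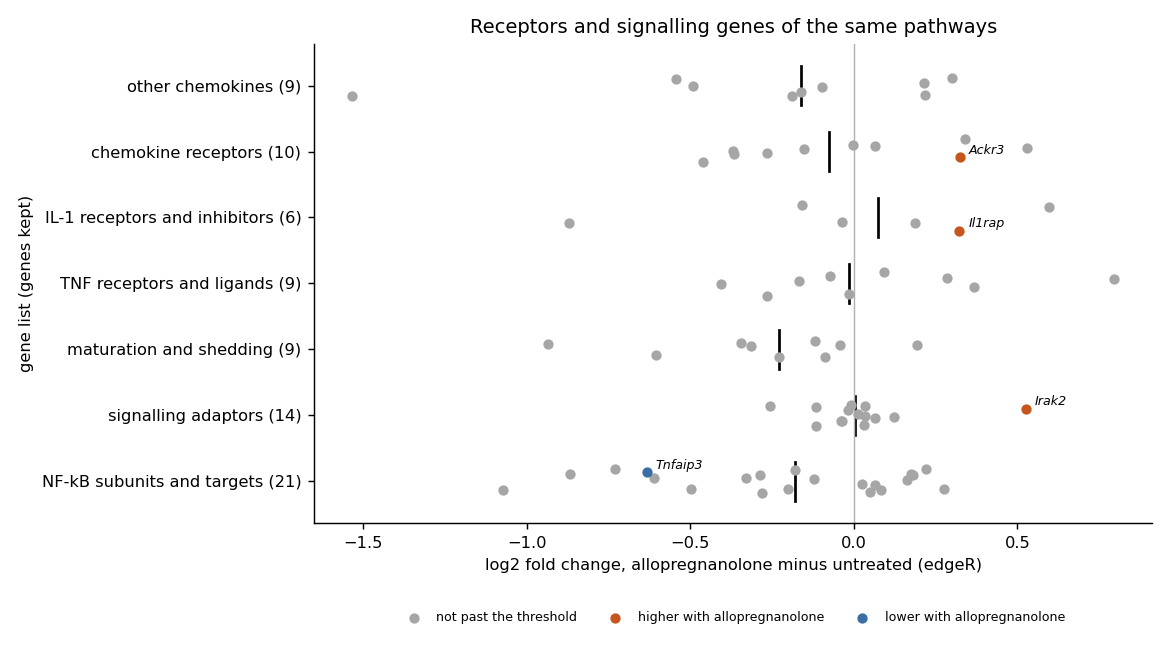
Log2 fold change of every gene at the count minimum on 7 lists of ligands, receptors and signalling genes of the same pathways (x axis, allopregnanolone minus untreated, edgeR; points, with list medians as black bars). Of all these points only Ackr3, Il1rap and Irak2 are higher and only Tnfaip3 is lower past the threshold. Over all genes at the minimum 6.61% were higher and 4.65% lower.

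TNF receptors and downstream genes were compared in the same fit, where 6.61% of all genes at the minimum were higher and 4.65% lower. None of 9 TNF receptor and ligand genes at the minimum passed in edgeR, DESeq2 or limma, with a median log2 fold change of -0.014, and Cd40 alone was at an unadjusted p under 0.05 in edgeR, higher. Tnfrsf1a and Tnfrsf1b, the receptors of Tnf, stood at -0.17 (SE 0.14) and -0.40 (SE 0.20). None of 9 genes of cytokine maturation and shedding passed in TMM-scaled edgeR or in limma, while 1 was lower in DESeq2 and in edgeR with upper-quartile scaling, library totals or robust estimation (2 lower and 1 higher at an unadjusted p under 0.05 in edgeR). The median was -0.23, with Gsdmd, the pore through which Il1b leaves the cell, at -0.94 (SE 0.29, adjusted p = 0.0514). Aim2, a DNA sensor that activates caspase-1, was at -0.61 (SE 0.28), and Rhbdf1, a partner of Adam17, was at 0.19 (SE 0.079). Among 14 adaptor genes Irak2, a kinase of the interleukin-1 and Toll-like receptor pathway, was the only call, higher at 19.5 ± 2.56 CPM in the allopregnanolone group and 13.6 ± 0.968 CPM in the untreated group (SD, n = 5 each, adjusted p = 0.00464, edgeR). Of 21 NF-kB subunits, inhibitors and target genes at the minimum, 1 was lower and none was higher in edgeR (3 lower in DESeq2), with a median of -0.18. The lower gene was Tnfaip3, which encodes the feedback inhibitor A20, at 4.59 ± 0.937 CPM in the allopregnanolone group and 7.10 ± 1.49 CPM in the untreated group (SD, n = 5 each, adjusted p = 0.0309, edgeR), and it was lost in 10 of 21 other analyses. Birc3 and Bcl3, further NF-kB targets, were at -0.73 (SE 0.24) and -0.87 (SE 0.30), and Tnip1, which works with A20, was at 0.22 (SE 0.074), none past the threshold in edgeR.

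Markers of the cells that could make these signals were compared beside them. The 16 microglia markers summed to 385 to 412 CPM in the allopregnanolone group and to 387 to 489 CPM in the untreated group. Of the 16, 1 was higher (Tmem119) and none was lower, against 6.61% and 4.65% of all genes at the minimum. The 2 untreated libraries with the largest microglia sums were 1 and 4 (489 and 461 CPM), and untreated library 5 had the smallest (387 CPM). With the mean log2 level of the microglia markers other than Cx3cr1 as a covariate the log2 fold change was -3.33 for Ccl3 (adjusted p = 0.0152) and -2.33 for Il1a (0.0158), both past the threshold, and -1.60 for Cxcl16 (0.115), -2.26 for Il1b (0.151) and 0.25 for Cx3cl1 (0.0838), none of which passed (edgeR; 2.46% of all genes at the minimum were lower in this fit). In bulk RNA, fewer cells of a type and less RNA per cell cannot be told apart.

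**Figure D5:**
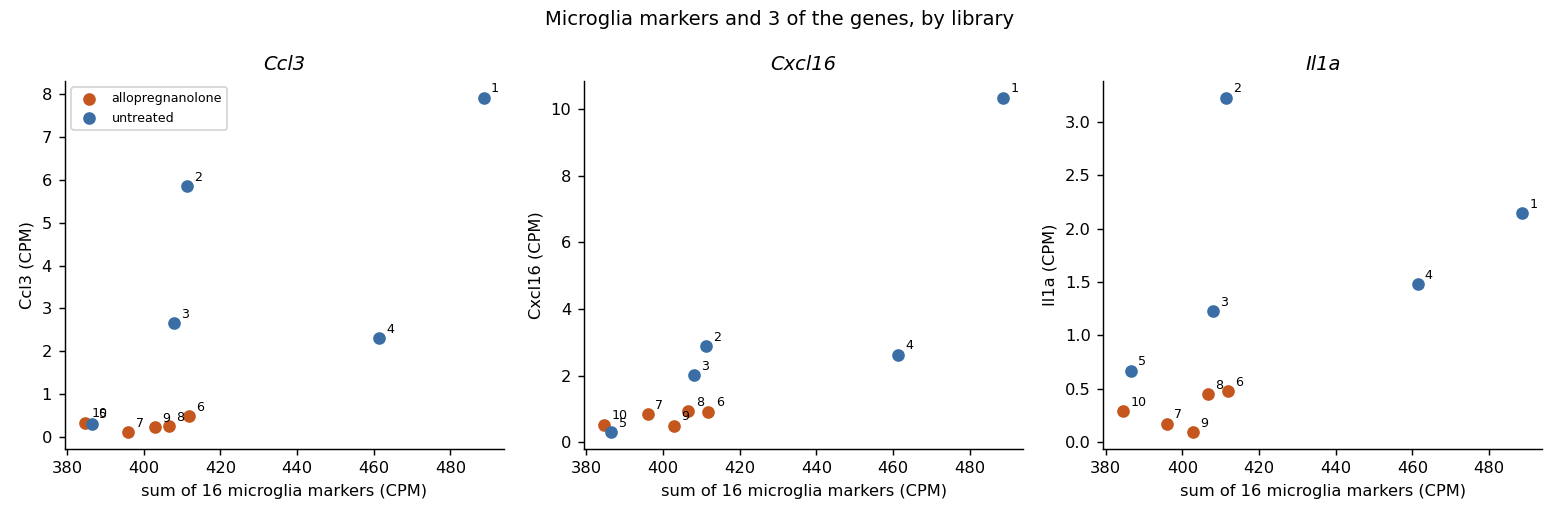
CPM of Ccl3, Cxcl16 and Il1a (y axis, own scale per panel) against the sum of 16 microglia markers in CPM (x axis) for each library, with the library number beside each point. Allopregnanolone libraries lie at 385 to 412 CPM of markers and untreated libraries at 387 to 489 CPM, and untreated libraries 2, 3 and 5 lie within or next to the allopregnanolone range of marker sums. Of these, libraries 2 and 3 lie above the allopregnanolone libraries in all 3 panels, and library 5 does so for Il1a but is inside their range for Ccl3 and below it for Cxcl16.

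Markers of neutrophils and lymphocytes were low, while those of red blood cells were not. The 7 red blood cell markers summed to 975 to 1571 CPM in the allopregnanolone group and to 598 to 1467 CPM in the untreated group. The 11 neutrophil markers summed to 1.43 to 8.61 CPM in the allopregnanolone group and to 0.390 to 6.88 CPM in the untreated group, and none reached the count minimum. Of the 12 lymphocyte markers Cd3d was at 0 in every library, and the list summed to 4.86 to 20.1 CPM in the allopregnanolone group and to 9.30 to 17.0 CPM in the untreated group, most of it Cd4. Monocyte markers with brain expression of their own, such as Fn1 and Vcan, made up most of a sum of 216 to 254 CPM in the allopregnanolone group and 217 to 268 CPM in the untreated group. Chil3 was near zero, and Ccr2 was at 0.119 to 0.248 CPM in the allopregnanolone group and 0 to 1.68 CPM in the untreated group, highest in untreated library 1. Border macrophage markers summed to 11.0 to 21.1 CPM in the allopregnanolone group and to 13.4 to 20.6 CPM in the untreated group. Of the 7 of them at the count minimum, 1 was higher and none was lower. Clec12a, below the minimum, had 0.0894 to 0.230 CPM in the allopregnanolone group and 0.344 to 2.15 CPM in the untreated group, highest in untreated library 1. Neuron markers, which cover the main source of Cx3cl1, summed to 7272 to 8226 CPM in the allopregnanolone group and to 7404 to 8391 CPM in the untreated group. Of these 11 markers 1 was higher and 3 were lower past the threshold in edgeR, where 6.61% of all genes at the minimum were higher and 4.65% lower. All 10 oligodendrocyte markers were higher, with sums of 5999 to 8105 CPM in the allopregnanolone group and 2025 to 3901 CPM in the untreated group. Midbrain markers also differed, at 24.6 to 148 CPM in the allopregnanolone group and 15.8 to 37.2 CPM in the untreated group. With their mean as a covariate none of the 6 genes at the minimum passed (0.415% of all genes were lower in that fit). At an unadjusted p under 0.05, 3 were lower and 1 higher, but the share of all genes at that p was not counted. The log2 fold changes were -4.19 for Ccl3 (adjusted p = 0.0643) and -2.94 for Il1a (adjusted p = 0.0516, edgeR). The part of the midbrain difference in these results was not tested further.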

How the data were processed

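The extraction used a RNeasy kit and the libraries a strand-marking NEBNext kit, per the labels' protocols. Partek and mm10 are named in the submitters' processing notes. No source used here names the aligner, the counting program, the annotation or the strand setting. The authors deposited estimated counts (expected counts) for 55471 identifiers; the table is called normalized, but library totals differed and 86.8% to 87.6% of values above 0 were whole, so they were rounded and analysed as counts, with no column left out. Names, exon lengths and coordinates come from GENCODE M21 (GRCm38), which held 55230 of the identifiers.

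CPM are scaled by TMM. Groups were compared in R 4.3.3 by the quasi-likelihood test (edgeR 4.0.16), which is two-sided, without covariates, on genes with 10 or more counts in at least 5 libraries, with Benjamini-Hochberg adjustment over all genes fitted. Genes below that minimum were taken from a fit on all genes with a count. The SE is the log2 fold change over the root of F. The test was checked on simulated data. Alternatives used DESeq2 1.42.0, limma 3.58.1, other scalings and filters, covariates and left-out libraries. Figures used matplotlib 3.10.9. Labels do not state that pups came from separate litters, so p-values measure the spread between these samples. Named genes are the 10 genes, their receptors whatever the p (1 is not reported here), genes past the threshold on 7 lists with up to 4 others each, and the 6 genes most like Ccl3; single markers of cell types were named after their values were seen. The genes and lists were chosen with earlier results of these data known. Shares of all genes were counted at adjusted p only, so counts at an unadjusted p are descriptions.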

Additional observations from a re-analysis of the deposited data

Results flagged for a closer look

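Across 79 groups of 5 libraries, 12 had a highest or lowest library set far apart from the other 4 by Dixon's ratio (critical value 0.71). For independent, normally distributed values chance sets apart about 1 group in 20. The groups here share libraries and some are near zero, so the 12 cannot be set against that rate. Untreated library 1 was the library set apart in 6 of the 12. It had 10.3 CPM of Cxcl16, against 0.311 to 2.88 CPM in the other untreated libraries. It had 5.19 CPM of Cxcl10 (others 0.237 to 0.646), 4.60 CPM of Il1rn (others 0 to 1.25) and 9.56 CPM of Tnfrsf1b (others 4.78 to 5.82). Its Cx3cr1 was at 73.0 CPM (others 50.3 to 55.9) and its monocyte marker sum at 268 CPM (others 217 to 228).

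Allopregnanolone library 6 had a Tnfrsf1b level of 6.76 CPM (others 3.87 to 4.56), a neutrophil marker sum of 8.61 CPM (others 1.43 to 2.02) and a pericyte and meningeal marker sum of 1076 CPM (others 514 to 573). Untreated library 4 had a neutrophil marker sum of 6.88 CPM (others 0.390 to 1.38). Allopregnanolone library 7 had the lowest Ackr3 of its group, at 9.96 CPM (others 11.0 to 11.3). Ccl5 was at 0.0479 CPM, a single count, in allopregnanolone library 10 and at 0 in the other 4.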

How the results depend on the processing

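All genes at the count minimum numbered 1131 higher and 795 lower. With library totals alone 1453 were lower. With the microglia covariate 708 were higher and 421 lower, with the midbrain covariate 140 and 71, and without the 3 untreated libraries of the other name prefix 76 and 23. Leaving out each library in turn gave 647 to 1357 higher and 437 to 984 lower. Of the 6 genes of interest at the minimum, 3 were lower and 1 higher. None was higher with the microglia covariate, and 0 were lower or higher with the midbrain covariate or within the name prefix. Leaving out each library gave 2 to 3 lower and 0 to 1 higher. Without the minimum the counts over 10 genes were 5 lower and 1 higher. They became 3 and 0 with limma-trend, with the microglia covariate and with the midbrain covariate, and 0 and 0 within the prefix, and leaving out each library gave 3 to 7 lower and 0 to 1 higher. The cause was not tested. Il18 turned to -0.025 with library totals alone and to -0.040 within the prefix, and was -0.032 to 0.075 on leaving out each library; Cxcl12 was -0.17 to 0.040 there; Tnfrsf12a turned to -0.10 with the midbrain covariate. Ccl3 and Il1a lost the threshold in 2 of 21 alternatives each (the midbrain covariate and the name prefix), Cxcl16 in 12 and Cx3cl1 in 10, and Ccl4 in 2 of 20 (robust empirical Bayes, adjusted p = 0.164, and the name prefix). DESeq2 gave no adjusted p for Il1b and Tnf without the minimum. Low counts limit Il1b and Tnf most, with at most 17 reads in a library. No paired analysis was possible because the groups share no replicate numbers.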
